A study of Mus musculus with 46 samples.

Results

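Liver lipid is stored in droplets, a neutral lipid core under a single phospholipid layer that carries coat proteins. The 10 genes described here are those of the CIDE droplet proteins (Cidea, Cideb, Cidec), 4 perilipin coat proteins (Plin2, Plin3, Plin4, Plin5), the triglyceride lipase Pnpla2 with its inhibitor G0s2, and Fitm2. They were listed by symbol, and all 10 were found among the 25494 genes of the RNA-seq counts table. The list was chosen from droplet biology and from the RNA differences between the diets in these same mice. The RNA differences of the 10 genes are therefore given as a description, with no p-value.

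Male C57BL/6 mice were fed for 20 weeks either a high fat diet with 60% of its energy from lipid (LD) or a low fat diet with 70% of its energy from carbohydrate (CD). All animals were wild type, entered the study at 5 weeks of age and spent about 1 week on chow before the diets, and no drug or genetic change was part of any group. RNA-seq was made from the livers of 5 LD and 5 CD mice, H3K27ac ChIP-seq from 3 livers a diet, and HNF4α and C/EBPα ChIP-seq from 2 livers a diet. Promoter capture Hi-C interactions were called once per diet from 2 pooled libraries.

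CIDE proteins gather where droplets touch and pass lipid from the smaller to the larger droplet, so that few large droplets form. Perilipins cover the droplet surface and control the access of lipases. Pnpla2 (adipose triglyceride lipase) takes the first fatty acid from a triglyceride, G0s2 binds and inhibits it, Abhd5 activates it, and Fitm2 is a membrane protein of the endoplasmic reticulum that helps droplets to form. In healthy liver Plin2 and Cideb are the family members best known from hepatocytes, whereas Cidea, Cidec and Plin4 are best known from fat cells.

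Each RNA library held 31707963 to 39012699 read pairs assigned to genes, and 13494 genes passed the filter on low counts. Expression is given as CPM, read pairs scaled to library size, for 1 gene across mice and as TPM, which also corrects for gene length, between genes. A gene was called where edgeR's quasi-likelihood test gave an adjusted p under 0.05 and the fold change exceeded 1.2. At these settings 13.8% of all genes tested were called higher on LD and 11.1% lower. All 5 LD mice lay above all 5 CD mice for 10.2% of genes and below them for 8.35%. The median log2 fold change over all genes tested was -0.0019. Whole liver was measured, so more RNA per cell and more cells of an expressing type cannot be told apart.

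Of the 10 genes, 5 were called higher on LD (Cidea, Cidec, Plin4, Plin2 and Fitm2), 0 were called lower, and 5 were not called. Since the list was drawn up with these differences in view, nothing is read from these counts against the 13.8%. The 5 called genes were also those in which the diets did not overlap, against 10.2% of all genes. The median log2 fold change of the 10 genes was 0.67.

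Within the CIDE family, the 2 members known from fat cells were nearly silent on CD and abundant on LD. Cidea stood at 22.2, 23.9, 41.0, 27.7 and 22.7 CPM in the 5 LD mice and at 0.478, 0.705, 0.922, 0.381 and 0.320 CPM in the 5 CD mice. The lowest LD mouse lay far above the highest CD mouse, and LD replicate 3 was the highest of its group. The means were 27.5 ± 7.85 CPM on LD and 0.561 ± 0.249 CPM on CD (mean ± SD of 5 mice), a 48.0-fold difference and a log2 fold change of 5.58 ± 0.27 (SE). This rests on 4816 read pairs on LD and 98 on CD.

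Cidec, which in white fat cells makes the single large droplet, stood at 41.8, 66.0, 134, 103 and 127 CPM on LD. In the CD mice it stood at 1.59, 1.28, 2.79, 2.54 and 2.65 CPM. The LD mice spread widely but stayed apart from every CD mouse. The log2 fold change was 5.44 ± 0.41 (SE), or 43.5-fold, from 16432 read pairs on LD and 370 on CD.

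Cideb, the hepatocyte member with a known role in loading lipid onto very low density lipoprotein, did not separate by diet. Its means were 121 ± 12.4 CPM on LD and 111 ± 5.10 CPM on CD (mean ± SD of 5 mice), with a log2 fold change of 0.13 ± 0.07 (SE), and the 2 diets overlapped.

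The make-up of the family thus differed, as the plot of summed TPM by mouse shows. On CD, Cideb held a median of 98.2% of the CIDE TPM (97.5 to 98.7% over 5 mice), Cidec 1.52% and Cidea 0.412%. On LD, Cideb held 58.4% (49.4 to 69.96%), Cidec 29.7% (16.8 to 38.9%) and Cidea 13.2% (10.2 to 15.7%). The ranges of the 2 diets were apart for each of the 3 genes. The median of the summed CIDE level was 362 TPM on LD and 172 TPM on CD.

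**Figure D1:**
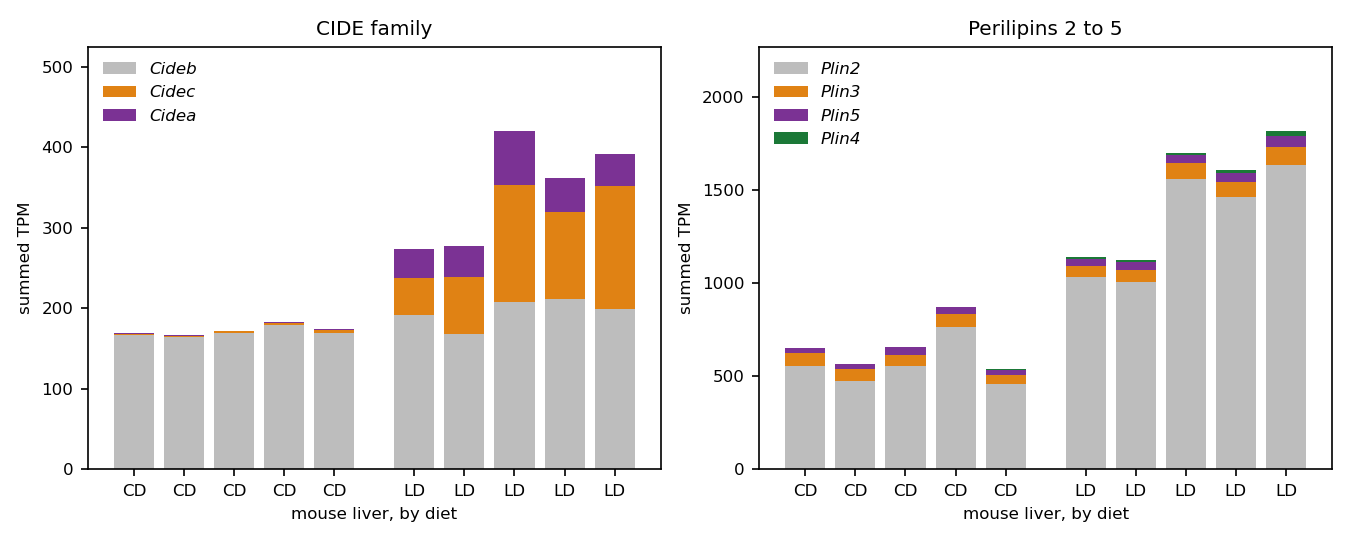
Summed TPM of the CIDE family (left) and of perilipins 2 to 5 (right), 1 stacked bar for each of 5 CD and 5 LD livers, coloured by gene. Cideb fills nearly all of each CD bar, with a median share of 98.2%, while Cidec and Cidea together take a large part of each LD bar, and Plin2 fills most of each perilipin bar on both diets.

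Among the perilipins, Plin4 had the largest difference and Plin2 the highest level. Plin4, a coat protein with long amphipathic repeats, stood at 26.2, 35.7, 45.4, 58.6 and 74.6 CPM on LD and at 2.64, 2.24, 6.56, 4.51 and 4.69 CPM on CD. Every LD mouse lay above every CD mouse. The log2 fold change was 3.54 ± 0.38 (SE), or 11.6-fold.

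Plin2, the main droplet coat of hepatocytes, stood at 1027, 1025, 1565, 1528 and 1497 CPM on LD. On CD it stood at 615, 487, 471, 571 and 804 CPM. LD replicates 1 and 2 lay well below the other 3 LD mice, and all 5 lay above the highest CD mouse. The log2 fold change was 1.17 ± 0.17 (SE), or 2.25-fold.

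The other 2 perilipins overlapped between the diets. Plin5, which ties droplets to mitochondria in oxidative tissues, had means of 47.7 ± 5.85 CPM on LD and 37.2 ± 7.84 CPM on CD (mean ± SD of 5 mice) and a log2 fold change of 0.36 ± 0.13 (SE). Its CD mice stood at 31.7, 29.8, 33.2, 47.4 and 43.7 CPM, and the last 2 of these lay within the LD range of 42.3 to 56.1 CPM. Plin3, a coat protein of small and nascent droplets, had a log2 fold change of 0.26 ± 0.13 (SE), with LD mice between 66.5 and 101 CPM and CD mice between 59.6 and 88.4 CPM. Plin1, the perilipin of mature fat cells, had 0 read pairs in every library.

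On the TPM scale the order of the perilipins was Plin2, Plin3, Plin5 and Plin4 on both diets. Plin2 stood at 1337 ± 298 TPM on LD and 560.2 ± 123 TPM on CD (SD, n = 5), and Plin4 at 16.0 ± 6.99 TPM on LD and 1.29 ± 0.560 TPM on CD. Plin2 held a median of 90.6% of the perilipin TPM on LD and 84.8% on CD, and Plin4 held 1.03% on LD and 0.168% on CD. So the gene with the widest fold difference remained the least abundant of perilipins 2 to 5 in TPM.

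The lipase Pnpla2 and its inhibitor G0s2 were not called. Pnpla2 means were 26.4 CPM on LD and 25.8 CPM on CD, with a log2 fold change of 0.03 ± 0.14 (SE), the sign of which turned in 4 of the 10 leave-one-out fits. G0s2 stood at 133, 173, 247, 169 and 151 CPM on LD and at 75.2, 69.4, 66.6, 219 and 129 CPM on CD. Of its CD mice, replicate 4 lay above 4 of the 5 LD mice, and the diets overlapped. The log2 fold change was 0.64 ± 0.36 (SE), and without CD replicate 4 it was 1.04 ± 0.24 (SE).

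Fitm2 stood at 42.8, 34.3, 51.4, 55.0 and 44.6 CPM on LD and at 23.5, 23.1, 29.1, 32.7 and 32.02 CPM on CD. The lowest LD mouse lay just above the highest CD mouse. The log2 fold change was 0.70 ± 0.14 (SE), or 1.62-fold.

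**Figure D2:**
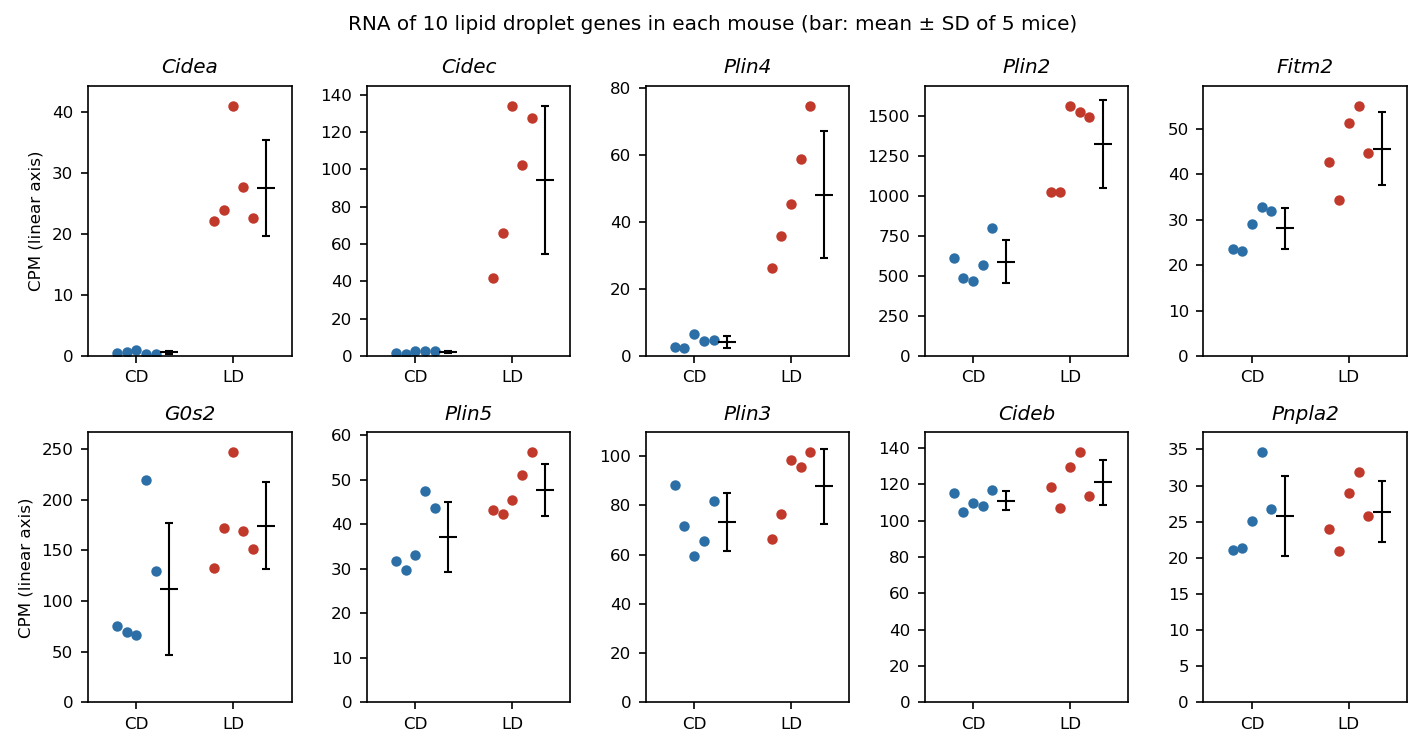
CPM (linear axis from 0, a separate scale for each gene) of the 10 genes in each of 5 CD and 5 LD livers, with points in replicate order and the mean ± SD beside each group. The upper row begins with Cidea, Cidec, Plin4, Plin2 and Fitm2, in which the diets did not overlap, and the lower row holds the 5 genes in which they did.

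How the genes varied among mice of the same diet was described with the correlation of log2 CPM after the diet means were removed, over 10 mice that share library depth and handling. Cidec and Plin4 varied together (Pearson r 0.89), as did Pnpla2 and Fitm2 (0.93) and Plin2 and Plin3 (0.83). Cidea varied apart from Cidec (0.15) and from Plin4 (0.08). LD replicate 3, the highest mouse for Cidea, was also the highest for Cidec but only the third in Plin4. LD replicate 5, the highest in Plin4, was next to lowest in Cidea. In the CD mice Cidea rested on only 11 to 33 read pairs a mouse. Among 12063 genes compared, those most like Cidea by this measure were Timm22 (0.94), Rusc2 (0.93), Osgin2 (0.90), Anks1 (0.88) and Ints2 (0.87). Those most like Cidec were Rab34 (0.93), Pepd (0.93), Arpin (0.93), Slc35c1 (0.93) and Ulk3 (0.92), and those most like Plin4 were Agbl5 (0.97), Rab11fip3 (0.94), Nvl (0.93), Slc20a1 (0.91) and Crot (0.91). These are the highest of 12063 values over 10 mice, so nothing is read from their names.

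A list of 49 other lipid droplet genes gives the setting, of which 44 were in the table and 43 were tested. It was drawn up, like the list of regulators, with earlier results of these mice known, so its counts are not independent evidence of a direction. Of these, 15 rose on LD and 4 fell, where 13.8% and 11.1% of all genes did, and 24 were not called. The median log2 fold change of the list was 0.09, against -0.0019 for all genes. The diets did not overlap in 9 of the 15 and in 2 of the 4.

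The largest rises of the list were those of Agpat9 and Mogat1, enzymes that build glycerolipids. Agpat9, an acyltransferase of the first step of triglyceride synthesis, rose from 2.95 ± 0.954 to 20.6 ± 4.75 CPM (SD, n = 5, log2 fold change 2.79, edgeR adjusted p 1.43e-05). Mogat1, a monoacylglycerol acyltransferase, rose from 2.01 ± 0.983 to 12.2 ± 4.53 CPM (2.59, edgeR adjusted p 0.000849). Lpin2, a phosphatidate phosphatase, rose by 0.67 on the log2 scale (edgeR adjusted p 0.000319). Dgat1 and Dgat2, which add the last fatty acid, were not called (log2 fold changes -0.15 and -0.28, edgeR adjusted p 0.202 and 0.0515).

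Genes called higher among those of the droplet surface or of droplet formation included Fitm1, the paralogue of Fitm2. It rose with a log2 fold change of 0.86 (edgeR adjusted p 0.00268) and Hsd17b13 with 0.73 (0.00355). Hilpda, a small droplet protein that inhibits Pnpla2, rose with 0.95 (edgeR adjusted p 0.0134), although its level was only 3.90 CPM on LD. Bscl2, the seipin of droplet budding, rose with 0.34 (0.0110), as did the acyl-CoA ligase Acsl3 with 0.41 (edgeR adjusted p 0.00977), Mettl7b with 0.29 (0.0318) and Spg20 with 0.26 (0.0115).

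Among lipases and hydrolases, Ces1g (0.67, edgeR adjusted p 0.00137), Mgll (0.48, 0.0481), Nceh1 (0.47, 0.00762), Lipe (0.44, 0.0434) and Lipa (0.37, 0.0138) rose. Abhd5, the activator of Pnpla2, was not called (-0.08, edgeR adjusted p 0.610). On the log2 scale Pnpla3, a droplet hydrolase and paralogue of Pnpla2, fell by 2.30 (edgeR adjusted p 0.000107). The lipid transfer protein gene Vps13c fell by 0.50 (edgeR adjusted p 0.00182), Tm6sf2 fell by 0.33 (0.0082) and Aadac fell by 0.31 (0.0302). Pnpla3 stood at 3.85 ± 0.968 CPM on LD and 19.0 ± 6.68 CPM on CD (mean ± SD of 5 mice).

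Of 14 transcription regulators listed beside the droplet genes, 2 rose, 3 fell and 9 were not called. These counts stand beside 13.8% of all genes called higher on LD and 11.1% called lower, and nothing is read from them. Pparg, the nuclear receptor of fat cell differentiation, rose from 16.2 ± 0.899 to 43.2 ± 8.64 CPM (SD, n = 5, log2 fold change 1.41, edgeR adjusted p 1.25e-05), and Ppara, the receptor of fasting fat oxidation in liver, rose with 0.34 (0.0160). Mlxipl, the carbohydrate response factor ChREBP, fell by 1.06 (edgeR adjusted p 8.57e-06), Ppargc1a fell by 0.73 (0.000701) and Foxo1 fell by 0.43 (0.0152). Hnf4a and Cebpa, whose proteins were mapped by ChIP-seq, each had a log2 fold change of -0.26 (edgeR adjusted p 0.0176 and 0.0202), short of the 1.2-fold limit. The other 7, Ppard, Rxra, Cebpb, Creb3l3, Srebf1, Nr1h3 and Esrra, had log2 fold changes from -0.45 (Srebf1) to 0.27 (Cebpb), with edgeR adjusted p from 0.15 to 0.889.

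Fat cell markers were examined because Cidea, Cidec and Plin4 are abundant in fat tissue. Of 14 white fat cell markers in the table, 8 were tested, of which 4 rose (Lipe, Fabp4, Cfd and Pparg) and 2 fell. The 2 that fell were Slc2a4 and Adrb3. Cfd, the secreted protease adipsin, rose from 0.542 ± 0.444 to 23.9 ± 15.6 CPM (SD, n = 5, log2 fold change 5.44, edgeR adjusted p 0.00147), and Fabp4, a fatty acid binding protein also made by macrophages, from 7.76 ± 1.52 to 20.6 ± 2.65 CPM (1.41, edgeR adjusted p 1.86e-05). The summed level of the 14 was 134 to 183 TPM on LD and 44.4 to 54.2 TPM on CD. Of this sum, Cfd gave 9.05 to 84.2 TPM on LD and 0.189 to 2.48 TPM on CD. Pparg gave 25.1 to 40.9 TPM on LD and 11.7 to 13.6 TPM on CD. Other markers of mature fat cells were at or near 0 on both diets. Adipoq had 2 read pairs in all LD libraries and 7 in all CD libraries, Lep had 0 on both diets, Retn had 4 and 1, and Plin1 had 0. Brown fat cell markers summed to 75.3 to 108 TPM on LD and 155 to 229 TPM on CD, most of it Elovl3, which fell from 172 ± 26.2 to 70.5 ± 18 TPM (SD, n = 5, edgeR adjusted p 0.000234). Cox7a1 and Prdm16 were not called, and Ucp1 had 0 read pairs. Hepatocyte markers summed to 92600 to 104617 TPM on LD and 91714 to 105019 TPM on CD, ranges that overlap, and 3 of 10 fell. Of the genes tested in each list, 2 of 9 macrophage, 2 of 8 stellate cell, 1 of 7 endothelial and 1 of 8 lymphocyte markers rose, and 1 stellate cell marker fell. Over all genes tested 13.8% were called higher on LD and 11.1% lower, and nothing is read from the marker counts against these shares. The part of other cell types in the RNA differences was not tested beyond these values.

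H3K27ac, the acetylation that marks active promoters and enhancers, was deposited as called domains with no height, so the value used is the share of a window covered, the window being the gene with 20 kb on either side. HNF4α and C/EBPα, factors that hold the hepatocyte expression programme, were deposited as peaks with a height in tags, scaled to a library of 10000000 tags and summed over the window. Libraries differed across the whole genome. H3K27ac domains covered 150 to 160 Mb on LD and 140 to 145 Mb on CD. At loci with a peak in all 4 libraries the median HNF4α height was 35.8 and 33.5 on LD but 21.5 and 42.8 on CD, and the median C/EBPα height was 24.0 and 25.5 on LD but 37.5 and 25.0 on CD. With 3 libraries against 3 an exact permutation test cannot go below a two-sided p of 0.1, and with 2 against 2 not below 0.333, so separation of the groups is given as counts beside the genome-wide share.

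Of the 10 genes, 8 had all LD libraries above all CD libraries in H3K27ac coverage and 0 had them below. Among all gene windows with any H3K27ac domain, these shares were 20.9% and 5.3%. When the number of domains was counted in place of coverage, 1 gene was above and 1 below. The part of the wider H3K27ac coverage of LD libraries in this was not tested. Cidec and Pnpla2 overlapped between the diets.

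Cidea had the widest contrast. Its window was covered to 12.5, 13.4 and 14.3% on LD and to 1.87, 0.934 and 3.43% on CD, without overlap. The means were 13.4 ± 0.934% and 2.08 ± 1.26% (SD, n = 3). Fitm2 had 20.49, 19.1 and 18.7% of its window covered in the LD libraries against 15.5, 10.02 and 16.8% in the CD libraries.

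In the other genes the window was already well covered on CD. G0s2 had 70.8 ± 2.24% on LD and 60.9 ± 2.58% on CD, Plin5 63.2 ± 1.40% and 57.0 ± 2.002%, and Plin4 49.3 ± 0.939% and 43.6 ± 1.89% (SD, n = 3). Plin2 had 50.9 ± 1.42% on LD and 47.5 ± 1.14% on CD, and Plin3 and Cideb likewise lay higher on LD. Cidec, with a 43.5-fold RNA difference, had 41.1 ± 1.41% on LD and 40.9 ± 1.85% on CD. Plin4 and Plin5 are neighbours, so parts of their windows and their peaks are shared.

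Summed HNF4α height separated the diets for 2 of the 10 genes, Cidea and Fitm2, both higher on LD. Among all gene windows with any HNF4α peak, 14.5% were higher and 4.96% lower. Cidea stood at 48.3 and 67.0 on LD and at 4 and 4.5 on CD. Fitm2 stood at 90.2 and 95.25 on LD and at 18.25 and 56.0 on CD. For the other 8 genes the 2 CD libraries lay on both sides of an LD library. Cidec had 217.5 and 223.7 on LD and 149.8 and 321.9 on CD. In Cidea and Fitm2 the LD libraries stayed above CD replicate 2, the CD library with the greater genome-wide height.

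Summed C/EBPα height was above CD in both LD libraries for Cidea and Fitm2 and below it for 5 genes. Among all gene windows with any C/EBPα peak, 9.18% were above and 33.9% below. Cidea stood at 35.5 and 54.5 on LD and at 15.5 and 8.50 on CD. The 5 lower genes were Cideb, Cidec, Plin4, Plin5 and G0s2, with Plin4 and Plin5 holding the same peaks. With heights scaled to the median of shared loci, chosen after seeing the data, more genes were above, fewer below, and Cideb was no longer separated. G0s2 stood at 212.5 and 241.5 on LD and at 397 and 298.5 on CD, and Cidec at 124.5 in both LD libraries and at 223 and 136.5 on CD. For Fitm2 the difference rested on the upstream locus: it was 11.2 in the 20 kb window and -5.50 with 10 kb on either side. With peaks of height 20 or more, 0 genes were above. The Cidec difference of -55.2 rested largely on CD replicate 1, being -12 without it and -98.5 without CD replicate 2. The Plin4 difference stayed between -81.8 and -60.2 when 1 library was left out.

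**Figure D3:**
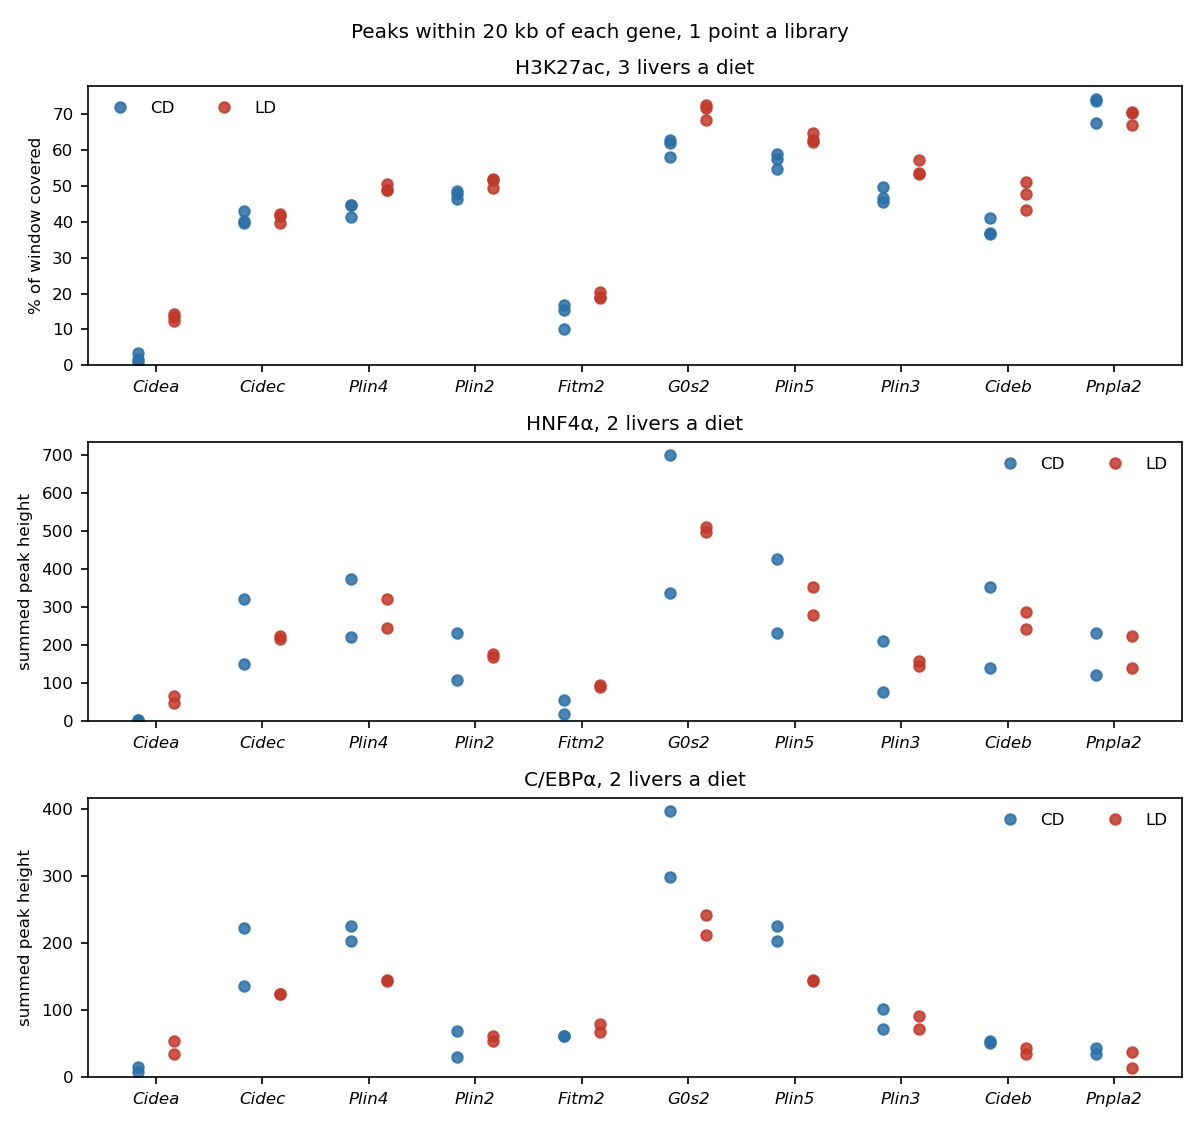
Share of each gene window covered by H3K27ac domains (top, %), summed HNF4α peak height (middle) and summed C/EBPα peak height (bottom, both in tags of a library scaled to 10000000), 1 point a library for CD and LD. Cidea is separated by diet in all 3 rows, Fitm2 likewise with less distance (in C/EBPα not with 10 kb windows), and G0s2 is higher on LD in H3K27ac but lower in C/EBPα.

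Peaks that overlapped between libraries were merged into loci, of which the 10 windows held 35 for H3K27ac, 60 for HNF4α and 55 for C/EBPα. Counting loci with a peak in 2 libraries or more, 2 of 33 H3K27ac loci were found in all LD and no CD libraries and 0 in CD alone, against 3.13% and 0.757% genome-wide. For HNF4α, 6 of 46 were found in both LD libraries and in no CD library and 0 in CD alone, against 7.49% and 3.96%. For C/EBPα these were 4 and 0 of 32, against 15.3% and 5.22%. Of HNF4α loci in all 4 libraries, 3 of 28 were higher in both LD libraries and 0 lower, against 16.6% and 2.62%. Of C/EBPα loci in all 4 libraries, 0 of 18 were higher and 14 lower, against 8.35% and 46.4%.

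**Figure D4:**
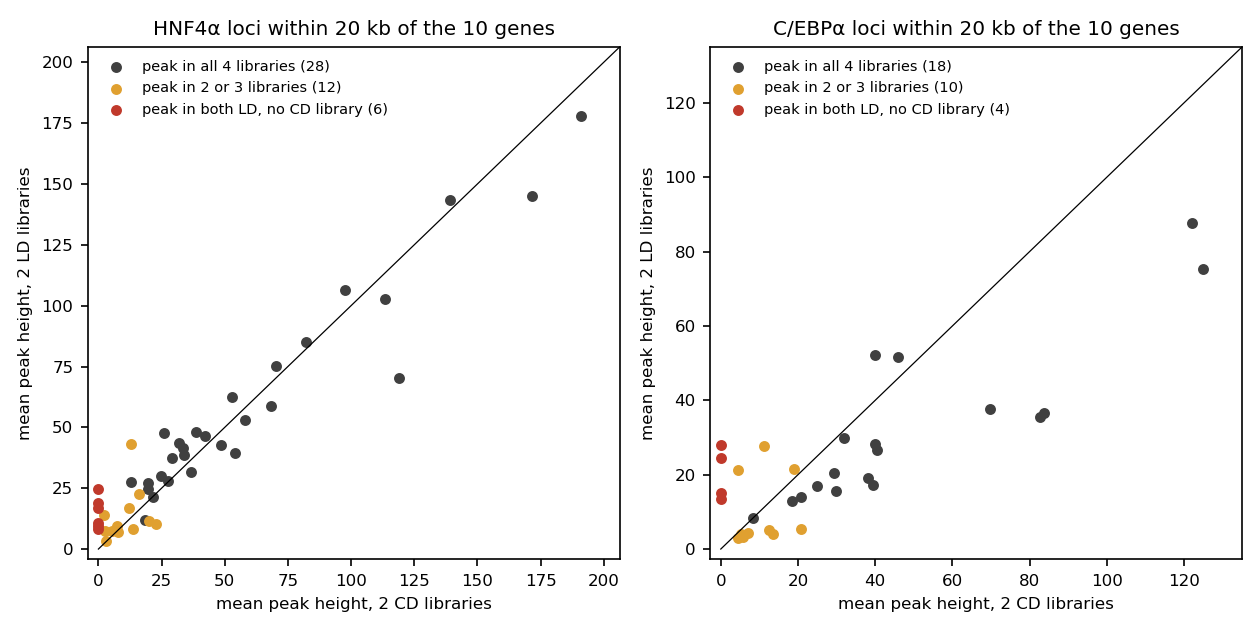
Mean peak height on LD against CD (tags of a library scaled to 10000000, linear axes, line of equality) for HNF4α and C/EBPα loci within 20 kb of the 10 genes, 1 point a locus with a peak in 2 libraries or more, coloured by the libraries it was found in. The 6 HNF4α and 4 C/EBPα loci found only on LD lie on the left edge, and most of the 18 C/EBPα loci found in all libraries lie under the line.

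Cidea lies on chromosome 18 from 67503218 to 67527448 on the plus strand (mm9, the build of all coordinates given). Both H3K27ac loci found on LD alone lay in its window. The first ran from -0.618 to 0.982 kb around the gene start and covered 1.4 kb in each of the 3 LD libraries. Its centre lies 182 bp from the Cidea start and 163 bp from a start of the antisense gene B430212C06Rik. The other ran from 7.38 to 8.98 kb inside the gene and covered 1.4, 1.6 and 1.4 kb. An upstream domain from -17.4 to -12.8 kb covered 4.6, 4.4 and 4.4 kb on LD and 1.2, 0 and 1.6 kb on CD.

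No factor peak was called in the domain at the Cidea start, whereas the intronic and the upstream domain held some. Inside the intronic domain, HNF4α peaks stood 8.39 kb after the start with heights 16.0 and 21.8 on LD and none on CD, and C/EBPα peaks 8.35 kb after it with heights 19.5 and 36.5 on LD and none on CD. At the edge of the same domain, an HNF4α locus 7.32 kb after the start had 13.8 and 14.2 on LD and 0 and 4.5 on CD. Upstream, a weak HNF4α peak of height 4 was called in CD replicate 1 alone, 15.7 kb before the start, while an HNF4α locus 13.6 kb before the start had heights 18.5 and 31.0 on LD and none on CD. A further C/EBPα locus of the window, between genes 26.3 kb after the start, had heights 16 and 11 on LD and none on CD, but CD replicate 2 had a separate peak of 8.5 at 26.6 kb. The Cidea window thus held 2 of the 6 LD-only HNF4α loci and 2 of the 4 LD-only C/EBPα loci. B430212C06Rik, which overlaps the Cidea start and the upstream domain and shares the captured promoter fragment, rose from 0.0813 to 1.69 CPM (log2 fold change 4.31, edgeR adjusted p 2.37e-05), in counts made by strand.

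**Figure D5:**
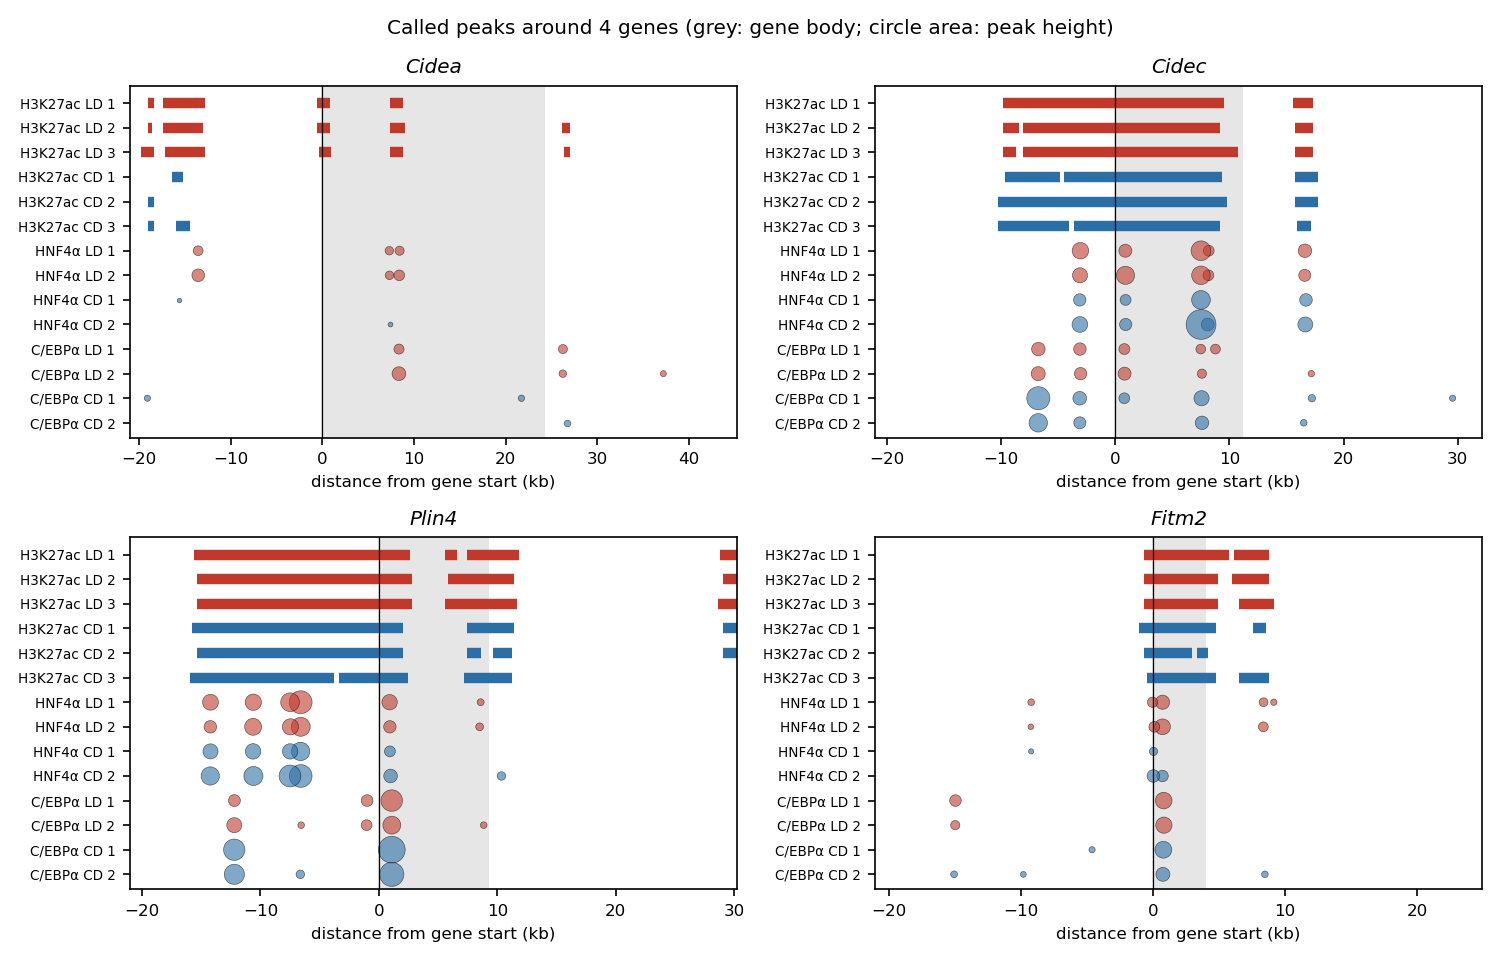
Called peaks in each library by distance from the gene start (kb) around Cidea, Cidec, Plin4 and Fitm2, with H3K27ac as bars, HNF4α and C/EBPα as circles whose area follows peak height, LD in red and CD in blue, and the gene body in grey. Cidea has bars at its start and near 8 kb in the 3 LD libraries and in no CD library, while the 1 or 2 bars between -10.2 and 10.8 kb of the Cidec start sum to 18.6 to 20 kb in each of the 6 libraries.

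The mapped regions of the other genes differ in which factor is present and how it varies with diet. Sequences are given for the loci on which the descriptions turn, 150 bases around the centre of the locus's peak in the library where it is highest, 5′ to 3′ on the strand of the gene. Capitals mark a match to TTGCNNAA (the core of C/EBP sites), to CAAAGTCCA (an HNF4 site) or to 2 copies of AGGTCA spaced by 1 base with up to 1 mismatch in each, searched on both strands. Among all C/EBPα loci, 38.0% held the first, 1.4% the second and 3.7% the third in such a window, and among all HNF4α loci 15.2%, 4.96% and 7.9%. Outside Cidea, 12 of 30 C/EBPα loci of these genes held the first, and 1 of 43 HNF4α loci held the second.

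Cidec lies from 113374628 to 113385754 of chromosome 6 on the minus strand. An H3K27ac locus merged over the libraries, called as 1 or 2 domains in each, reached from -10.2 to 10.8 kb around its start, and its domains summed to 19.4, 18.6 and 20 kb on LD and 18.6, 20 and 19 kb on CD. The factor loci within it differed in direction. An HNF4α locus in an intron 0.909 kb after the gene start, which is 87 bp before the start of the shorter transcript Cidec-003, had heights 32.5 and 63.2 on LD and 22.8 and 28.8 on CD. A C/EBPα locus beside it, 170 bp before the start of Cidec-003, had 23.0 and 32.5 on LD and 22.5 and 0 on CD. By contrast, a C/EBPα locus 6.73 kb upstream and 83 bp from the start of the neighbour Jagn1 had 35.0 and 38.0 on LD and 102.5 and 65.0 on CD, and one in an exon 7.57 kb after the start had 18 and 16.5 on LD and 44.0 and 35.0 on CD. Jagn1 RNA was not called (log2 fold change 0.09, edgeR adjusted p 0.391). The first of the C/EBPα loci is shown because it was at least as high on LD, and the upstream one because it was lower:
Cidec C/EBPα, 0.826 kb after the start (chr6:113384854-113385003, minus strand): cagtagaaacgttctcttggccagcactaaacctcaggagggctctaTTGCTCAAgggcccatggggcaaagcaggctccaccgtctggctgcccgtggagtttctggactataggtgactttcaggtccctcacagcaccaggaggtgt
Cidec C/EBPα, 6.73 kb before the start (chr6:113392406-113392555, minus strand): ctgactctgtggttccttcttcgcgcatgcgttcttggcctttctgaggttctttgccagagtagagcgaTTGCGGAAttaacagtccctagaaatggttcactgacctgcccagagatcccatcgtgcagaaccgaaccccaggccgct

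The 2 Cidec starts are also listed by RefSeq (GRCm38.p6), where the promoter of the later start, from 250 bases before to 50 after it, holds TTGCNNAA, as 10.8% of 32851 promoters do. The promoters of the other genes searched held no match to the 3 patterns, and the Cidea promoter was not searched.

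Plin4 lies from 56240014 to 56249225 of chromosome 17 on the minus strand, next to Plin5 (56251024 to 56256971). Its C/EBPα locus in an intron 1.09 kb after the start was the highest of the gene, with 89.0 and 61.5 on LD and 138 and 112 on CD. A second, 12.2 kb upstream and 64 bp from the start of the neighbour Lrg1, had 27.5 and 43.5 on LD and 87.5 and 78.0 on CD. Between Plin4 and Plin5, 0.99 kb before the Plin4 start, lay a C/EBPα locus found on LD alone with 26.5 and 22.5. Thus the 2 strong loci were lower on LD and the weaker one absent on CD. Of all C/EBPα loci found in all libraries, 46.4% were likewise lower on LD, and CD replicate 1 was higher genome-wide. The intronic and the LD-only locus are shown, of which only the former holds TTGCNNAA:
Plin4 C/EBPα, 1.09 kb after the start (chr17:56248059-56248208, minus strand): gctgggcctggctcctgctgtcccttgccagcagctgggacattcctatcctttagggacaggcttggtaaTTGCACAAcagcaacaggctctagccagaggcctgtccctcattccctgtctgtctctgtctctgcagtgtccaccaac
Plin4 C/EBPα, 0.99 kb before the start (chr17:56250141-56250290, minus strand): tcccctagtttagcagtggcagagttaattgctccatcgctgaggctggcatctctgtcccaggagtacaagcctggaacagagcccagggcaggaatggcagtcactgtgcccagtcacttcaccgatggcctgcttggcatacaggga

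Plin2 lies from 86302469 to 86315963 of chromosome 4 on the minus strand. Its start carried HNF4α peaks of 43.0 and 42.5 on LD and 33.2 and 63.8 on CD, and a stronger HNF4α locus 1.05 kb upstream had 109 and 103.5 on LD and 58.5 and 136.8 on CD. Both overlapped between the diets. A C/EBPα locus 2.01 kb upstream was found on LD alone, with heights 15.5 and 14.5. Its window ends in a spaced repeat of the AGGTCA type, the element to which nuclear receptors such as PPAR with RXR are known to bind:
Plin2 C/EBPα, 2.01 kb before the start (chr4:86317895-86318044, minus strand): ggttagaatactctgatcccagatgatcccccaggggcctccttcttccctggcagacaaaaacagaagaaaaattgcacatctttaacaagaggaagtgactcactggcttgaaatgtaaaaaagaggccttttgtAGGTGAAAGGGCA

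Fitm2 lies from 163294439 to 163298365 of chromosome 2 on the minus strand. HNF4α was found on LD alone 8.37 kb after the start, with 15.0 and 18.8, and in an intron 0.742 kb after the start it had 38.5 and 48.0 on LD and 0 and 25.5 on CD. An H3K27ac domain over the former, from 5.96 to 9.16 kb after the start, covered 2.6, 2.8 and 2.6 kb on LD and 1.0, 0 and 2.2 kb on CD. A C/EBPα locus 14.9 kb upstream had 26.0 and 16.5 on LD and 0 and 9.0 on CD. The strongest C/EBPα locus, 0.805 kb after the start, overlapped between diets with 53.0 and 50.5 on LD and 54.5 and 37.5 on CD. The HNF4α locus found on LD alone is shown, with none of the 3 patterns, and the upstream C/EBPα locus, with a match to TTGCNNAA:
Fitm2 HNF4α, 8.37 kb after the start (chr2:163289918-163290067, minus strand): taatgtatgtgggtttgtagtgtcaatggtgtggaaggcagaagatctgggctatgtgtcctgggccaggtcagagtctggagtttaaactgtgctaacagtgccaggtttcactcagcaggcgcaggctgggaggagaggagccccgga
Fitm2 C/EBPα, 14.9 kb before the start (chr2:163313225-163313374, minus strand): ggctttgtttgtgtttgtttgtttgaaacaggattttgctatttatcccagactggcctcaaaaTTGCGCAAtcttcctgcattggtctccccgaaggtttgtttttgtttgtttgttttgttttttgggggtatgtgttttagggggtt

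G0s2 lies from 195098354 to 195099382 of chromosome 1 on the minus strand, beside Hsd11b1. Its window held 7 C/EBPα loci found in all libraries, and in each both LD libraries were below both CD libraries, as in 46.4% of all such loci and with CD replicate 1 higher genome-wide. The highest, 5.41 kb upstream between genes, had 80.0 and 95.5 on LD and 137.5 and 106.5 on CD. At the start the heights were 14.0 and 17.0 on LD and 38.5 and 21 on CD. At a merged locus from -21.8 to 4.98 kb around the start, called as 1 to 6 domains in a library, H3K27ac went the other way and its domains summed to 25.6, 23.0 and 24.6 kb on LD and 20.8, 20.2 and 20.4 kb on CD. The highest locus is shown:
G0s2 C/EBPα, 5.41 kb before the start (chr1:195104716-195104865, minus strand): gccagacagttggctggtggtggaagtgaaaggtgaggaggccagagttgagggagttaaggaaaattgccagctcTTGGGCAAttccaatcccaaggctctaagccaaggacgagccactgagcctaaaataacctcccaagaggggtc

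Cideb lies from 56372892 to 56377261 of chromosome 14 on the minus strand. HNF4α at its start was among the strongest of all the loci described, with 165 and 121.5 on LD and 80.8 and 197.5 on CD, and overlapped between diets. A C/EBPα locus 0.672 kb after the start had 15.0 and 23.0 on LD and 39.5 and 37.0 on CD. An HNF4α locus 18.5 kb past the start had 24.2 and 30.8 on LD and 9.75 and 16.2 on CD. It lies in an intron of Dhrs1, a neighbour that rose with a log2 fold change of 0.31 (edgeR adjusted p 0.0114). Its sequence is shown as the only one of these HNF4α loci with CAAAGTCCA:
Cideb HNF4α, 18.5 kb after the start (chr14:56358691-56358840, minus strand): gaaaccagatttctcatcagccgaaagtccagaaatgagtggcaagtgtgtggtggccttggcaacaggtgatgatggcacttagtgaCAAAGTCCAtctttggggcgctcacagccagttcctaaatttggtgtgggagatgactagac

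The windows are shared with other genes, which sets what can be assigned to a member. They held 28 other genes, of which 23 were tested and 5 rose: B430212C06Rik (Cidea), Uhrf1 (Plin3), Dhrs1 (Cideb), Lrg1 (Plin4 and Plin5) and Cd151 (Pnpla2). None of the 23 was called lower by edgeR. Of all genes tested, 13.8% were called higher on LD and 11.1% lower, and nothing is read from the counts of neighbours against these shares. Uhrf1 rose with a log2 fold change of 2.66 (edgeR adjusted p 5.66e-05), whereas Plin3 itself had 0.26. A height or coverage summed over a window can thus belong to either gene.

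Promoter capture Hi-C lists contacts of a captured promoter fragment, the bait, with a CHiCAGO score of at least 5 over spans of up to 1 Mb. A bait listed with a contact carried 9 of the 10 genes. No listed contact involved a fragment with the Cidec start, and a bait with no contact past the score limit would not appear in the lists. With 1 pooled list a diet there is no test. The 9 baits had 81 distinct contacts in either list, 59 on LD and 58 on CD, with the contact between the Plin4 and Plin5 baits counted once. Of the 81, 36 (44.4%) were in both lists, where 53.8% of all contacts were. Those found in 1 list had scores of 5.01 to 8.93 with a median of 5.66, close to the limit of 5. Of those in both, 24 scored higher on LD and 12 on CD, where 47.4% of all contacts in both lists scored higher on LD. The Cideb bait held 11 of the 24 and 1 of the 12, and the other baits 13 and 11.

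Of the 9 baits, 5 had at least 5 contacts on a diet, and 0 of these 5 had over 1.5 times more on either diet, where 17.3% of all such baits had more on LD and 13.3% on CD. So few baits leave no reading against these shares. Cideb had 15 contacts on LD and 16 on CD, Plin5 11 and 14, Plin3 11 and 9, Plin4 10 and 8, G0s2 5 and 4, and Pnpla2 4 and 3. Fitm2 had 1 and 2, Plin2 1 and 0, and Cidea 2 and 2.

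The Cidea bait met the same fragments on both diets, that of Afg3l2 at 105 kb with scores 16.5 on LD and 17.7 on CD and that of Spire1 at 262 kb with 7.79 and 7.92. Both contacts were thus in the CD list, where Cidea RNA was at 0.561 CPM. The Afg3l2 fragment had peaks of H3K27ac, HNF4α and C/EBPα in every library of both diets. The contact with the highest score was that of the Cideb bait with Rec8, 33.9 on LD and 27.6 on CD, and the Cideb bait also met the fragment of Fitm1 at 176 kb (9.62 and 8.43). The Plin4 and Plin5 baits, 12.2 kb apart, were linked in the LD list alone with a score of 5.42.

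At the far ends of the 81 contacts, H3K27ac was present in all 6 libraries at 49 and in none at 24. HNF4α was present in all 4 libraries at 20 and in none at 42, and C/EBPα at 17 and 45. Of the far ends 43 were themselves baits. A fragment met by both the Plin4 and the Plin5 bait is counted for each contact. The same shares over all contacts were not worked out, so nothing is read from these counts. Whether contacts of these 9 baits differed between diets beyond the spread of replicates was not tested.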

How the data were processed

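Liver RNA-seq, ChIP-seq and promoter capture Hi-C files were used as deposited, all on mm9. The authors aligned RNA reads with STAR 2.5 and counted read pairs per RefSeq gene by strand with featureCounts 1.5.0-p1, giving the deposited counts. The deposited TPM were made by the authors with lengths not given in the sources used here, and 1 of their CD columns could not be tied to a replicate. The authors called H3K27ac domains with SICER (window 200 bp) and deposited starts and ends as the other unit, with no height. HNF4α and C/EBPα peaks carry a deposited signal, the HOMER tag count scaled to 10000000 tags. The authors scored interactions of pooled libraries with CHiCAGO (deposited score of at least 5). The deposited columns of the authors' own comparison (DESeq2 fold changes and FDR) and the deposited domains were not used, and 0 per-sample columns were left unmapped.

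Counts were tested with edgeR 4.0.16 (quasi-likelihood, TMM, 13494 genes, Benjamini-Hochberg adjustment), with limma 3.58.1 and DESeq2 1.42.0 as alternatives, in R 4.3.3. The fits were tested on simulated data. Windows were the gene with 20 kb on either side, and peaks that overlapped by 1 base were merged into loci. Members and lists were chosen with earlier results of these data known. Named genes were all members, the 12 called genes of the other droplet list with the largest change and others of it with a stated role (at least 1 CPM on a diet), regulators of at least 1 CPM, and the 5 genes most like Cidea, Cidec and Plin4. Marker genes are given as counts, sums and defining markers, and Slc2a4, Adrb3, Cox7a1, Prdm16, Elovl3, Mettl7b and Spg20 were named after their values were seen. Intervals and counts cover 5 mice a diet for RNA, 3 for H3K27ac and 2 for each factor. Chromatin was compared by whether the groups overlapped, and sequences came from the NCBIM37 genome and RefSeq promoters of GRCm38.p6.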

Additional observations from a re-analysis of the deposited data

How the results depend on the processing

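The RNA direction of 9 members held under every alternative: DESeq2 size factors, DESeq2, limma on log2(TPM + 1) and log2(TPM + 0.1), a filter of 10 counts, no filter, and each mouse left out. Pnpla2, which was not called, ranged from -0.046 to 0.16 and turned to -0.0053 without LD replicate 3, -0.046 without LD replicate 4, -0.036 without CD replicate 1 and -0.030 without CD replicate 2. The members called higher numbered 5 to 7 and lower 0 when 1 mouse was left out. Members whose call changed were Plin5 under DESeq2 (log2 fold change 0.36) and without CD replicate 4 (0.46) or 5 (0.42), G0s2 without CD replicate 4 (1.04) and Plin3 without LD replicate 1 (0.34). Other droplet genes called lower numbered 4, but 2 with limma at either pseudocount, and 3 to 5 (higher 11 to 16) when 1 mouse was left out. Same-numbered mice did not deviate together (r -0.11, 0.24, 0.05, 0.03 and -0.04), and with a replicate block 6 members were called, Plin5 being added (log2 fold change 0.38), and 15 and 5 other droplet genes higher and lower.

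H3K27ac above on LD remained at 8 members, and below at 0 to 1, when 1 library was left out. Counting domains instead gave 1 and 1, with differences of -1.67 for Plin2, -0.667 for Plin5 and -2.67 for G0s2; the cause was not tested. HNF4α rested on the CD libraries: 2 to 10 members were above and 0 to 8 below when 1 library was left out, 8 below without CD replicate 1 and 10 above without CD replicate 2. Peaks of height 20 or more gave 1 above, with Cidea no longer separated. Scaling heights to the median of shared loci, an alternative chosen after seeing the data, gave 2 above and 3 below for HNF4α, and 4 above and 4 below for C/EBPα, where Cideb was no longer separated. C/EBPα members numbered 2 to 3 above and 5 to 8 below when 1 library was left out, 8 below without CD replicate 2. For C/EBPα, windows of 10 kb gave 1 above with Fitm2 at -5.50, peaks of height 20 or more gave 0 above, and peak numbers gave 0 above and 0 below with Cideb at 1, Plin4 and Plin5 at 1.5 and Fitm2 at -1. Contact counts gave 0 members past 1.5 times in every setting. Chromatin values rest on 2 libraries for each factor and 1 list a diet for contacts.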
